A study of Rattus norvegicus with 50 samples.

Results

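Triclosan-treated parous rats (TCS_par, 5 rats) were set against vehicle control parous rats (OIL_par, 5 rats), 10 of the 50 rats of the series, chosen by the treatment and parity given in their sample titles. All 10 were female Sprague-Dawley rats dosed from postnatal day (PND) 1 to PND 180, the TCS_par rats with triclosan and the OIL_par rats with the vehicle, which the protocol names as olive oil. Young rats were dosed through the milk of treated dams, and by gavage once weaned at PND 28, by a protocol that is written out for diethyl phthalate and attached to all groups. The rats were mated at PND 97, nursed and weaned a litter, and were killed at PND 181. The dose of triclosan is not given in the sources used here. Rats within a treatment group were not siblings, all were killed at a random stage of the estrous cycle, and neither the cycle stage nor the hour of collection of a rat is given. RNA came from pieces of whole caudal mammary gland, so that fewer cells of a type and less RNA per cell cannot be told apart. For comparison, 5 nulliparous triclosan rats (TCS_null) and their 5 oil controls (OIL_null), of the same age and dosing but never mated, and 5 parous rats given a mixture of triclosan, diethyl phthalate and methyl paraben (MIX_par) were also used. For clock genes, 5 parous rats given diethyl phthalate alone (DEP_par) and 5 given methyl paraben alone (MPB_par) were used as well.

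Triclosan is a chlorinated phenolic antibacterial agent of soaps and toothpaste that blocks bacterial fatty acid synthesis. In rats it is known to lower circulating thyroxine and to engage receptors that control drug-metabolising enzymes. A parous mammary gland some weeks after weaning is a regressed tree of epithelial ducts and small alveoli in a fat pad that also holds fibroblasts, vessels, immune cells and, at its edge, muscle and lymph node.

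Values are log2 signals of an Affymetrix whole-transcript array, in which a step of 1 is a doubling. The deposited values differed between the RNA extraction kits, which coincide with the labelled batches and cannot be told apart from them, for 8200 of the bright genes (62.4%, adjusted p under 0.05). Each group held 3 Promega and 2 Zymo rats, except DEP_par with 1 and 4. The kit was fitted beside the treatment, and single-rat values below are kit-adjusted log2 signals in the order TCS_par_237, TCS_par_238 and TCS_par_239 (Promega) and TCS_par_240 and TCS_par_243 (Zymo), then OIL_par_440, OIL_par_441 and OIL_par_442 (Promega) and OIL_par_444 and OIL_par_446 (Zymo). Array medians ranged from 6.73 to 6.91. Of 18166 named genes, 13132 passed the intensity filter and 6566, the more variable ones, were tested. The tissue label was borne out by its markers: Csn1s1, the alpha-S1 casein of milk, averaged 13.63 in TCS_par and 13.64 in OIL_par glands, and Adipoq, the adipocyte hormone adiponectin, averaged 12.84 and 12.85 in the same order.

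No gene passed an adjusted p under 0.25 together with a fold change of at least 1.5 in TCS_par against OIL_par glands (limma, Benjamini-Hochberg over 6566 genes, 0% called). Of all genes tested, 3109 were higher and 3457 lower in TCS_par glands. At an unadjusted p under 0.05, 22 genes were higher (0.335% of those tested) and 30 were lower (0.457%) in TCS_par glands. These 52 genes were 0.792% of those tested, below the share of 0.05 that this cut marks on average where no gene differs. The split depended on the scaling, with 13 higher and 39 lower after arrays were centred on their medians and 35 higher and 29 lower after quantile normalization. These included 5 genes of the circadian clock, 3 mast cell genes and single signalling genes such as Edn1 and Areg, and they are described below as values that did not pass. Estimates for single genes ranged from 1.45 higher (Tnnc2) to 1.60 lower (Ccl19) on the log2 scale, and the standard error of the difference had a median of 0.203 (0.159 to 0.344 for most genes). For 3471 genes (52.9%), the 95% interval of the difference lay within a fold of 1.5 in either direction. With array weights, which let noisier arrays count less, 590 genes passed (453 of them lower, smallest adjusted p = 0.103). Those weights ran from 0.253 for TCS_par_239 and 0.486 for OIL_par_446 to 3.20 for TCS_par_238 and 4.02 for OIL_par_442. The mean centred level of T, NK, B and plasma cell genes was 1.59, -0.48, -0.75 and 1.17 in these rats, in that order. The part of this level in the weighted count was not tested.

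A stricter look at single rats found few genes without overlap. In 8 genes (0.122%) every TCS_par rat was above every OIL_par rat of its kit, and in 9 genes (0.137%) every TCS_par rat was below. With 3 Promega and 2 Zymo rats a group, some genes separate in this way even where none differs. Among those 9 was Hist1h4b, a histone H4 gene, with 9.57, 9.33, 9.02, 9.54 and 9.02 in TCS_par glands against 9.81, 9.85, 9.80, 9.69 and 10.00 in OIL_par glands. The groups of Hist1h4b did not overlap, and the difference was -0.53 ± 0.17 (SE; limma, unadjusted p = 0.00848, adjusted p = 1.00). Among the 8 was Otop1, a proton channel found in brown fat, which averaged 6.61 ± 0.08 in TCS_par and 6.34 ± 0.05 in OIL_par glands (SD, n = 5 each). Its OIL_par mean lay close to the 6.30 that the intensity filter asks of a group mean.

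**Figure D1:**
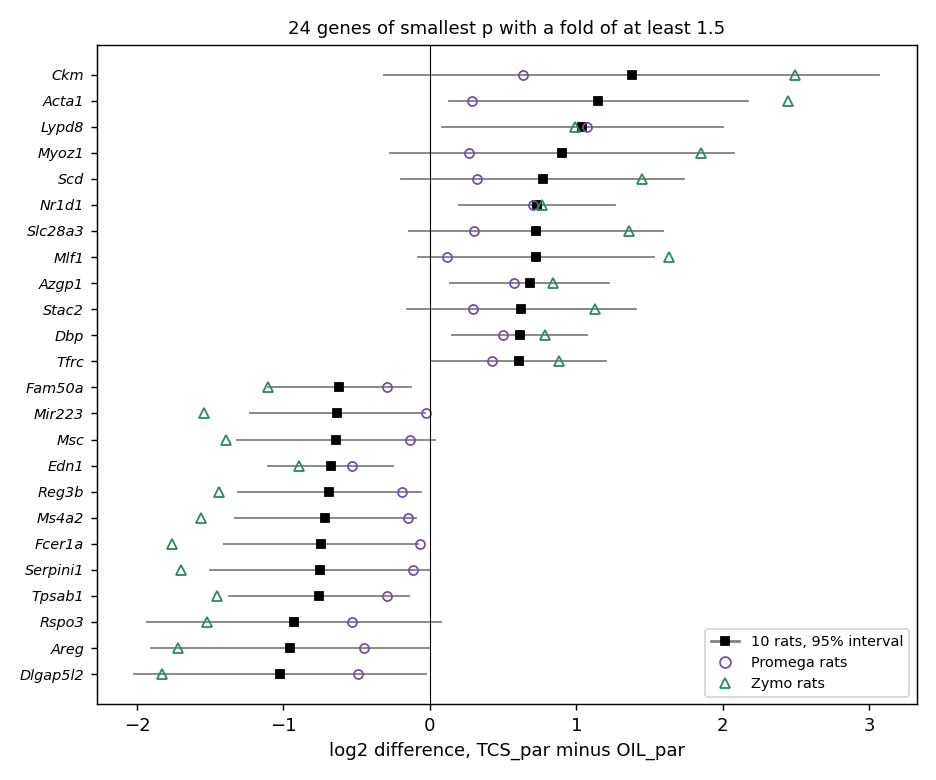
Log2 difference, TCS_par minus OIL_par, on the x axis for the 24 genes of smallest unadjusted p with a fold of at least 1.5, 12 in each direction (squares, 10 rats; lines, 95% intervals), with the difference among Promega rats (circles) and among Zymo rats (triangles). None passed the adjusted threshold, and for genes such as Mir223 (-0.03 in Promega rats, -1.54 in Zymo rats) the difference lay almost wholly in Zymo rats.

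The circadian clock is a feedback loop that runs in most cells, the mammary gland included. BMAL1 with CLOCK or NPAS2 switches on the Per and Cry genes, whose products shut that pair down, and also Nr1d1 and the PAR bZIP factors Dbp and Tef. The nuclear receptor REV-ERB alpha, the product of Nr1d1, in turn represses Bmal1, while RORA activates it. BMAL1 and CLOCK bind E-boxes, DBP and TEF bind D-boxes, and REV-ERB alpha and RORA bind RORE motifs. Promoter windows from RefSeq, running from 250 bases before to 50 bases after an annotated start on build GRCr8, were found for 15 of the 16 measured clock genes (17 windows) and were searched on both strands for the E-box CACGTG, the D-box TTANGTAA and the RORE core TAGGTCA. An E-box stood in a window of 5 genes (Bhlhe40, Bhlhe41, Ciart, Nr1d1 and Tef), a D-box in that of Per2 only and a RORE core in that of Bmal1 only, while 6.42%, 2.24% and 2.63% of all 33469 windows held these motifs. The following windows are shown for the clock genes with such a motif that differed most in level between the groups, with the motif in capitals. The window of Nr1d1 is that of a second annotated start (chr10:84229405-84229704, minus strand) with its E-box 191 bases upstream. The window of Per2 (chr9:99496944-99497243, minus strand) has its D-box 192 bases upstream, that of Tef (chr7:115206577-115206876, plus strand) an E-box 198 bases upstream, and that of Bmal1 (chr1:176766078-176766377, plus strand) a RORE core 16 bases upstream.
Nr1d1: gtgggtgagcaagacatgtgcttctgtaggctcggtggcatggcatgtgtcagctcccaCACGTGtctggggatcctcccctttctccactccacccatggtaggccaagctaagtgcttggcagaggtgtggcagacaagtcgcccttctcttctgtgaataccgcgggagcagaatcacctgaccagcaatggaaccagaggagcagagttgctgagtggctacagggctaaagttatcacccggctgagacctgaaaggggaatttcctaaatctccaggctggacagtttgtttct
Per2: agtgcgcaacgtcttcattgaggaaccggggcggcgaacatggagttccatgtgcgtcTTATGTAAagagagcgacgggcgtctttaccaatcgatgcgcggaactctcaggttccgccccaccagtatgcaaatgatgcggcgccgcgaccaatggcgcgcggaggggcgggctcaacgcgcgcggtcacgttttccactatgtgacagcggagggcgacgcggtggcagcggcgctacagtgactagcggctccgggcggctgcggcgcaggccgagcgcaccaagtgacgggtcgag
Tef: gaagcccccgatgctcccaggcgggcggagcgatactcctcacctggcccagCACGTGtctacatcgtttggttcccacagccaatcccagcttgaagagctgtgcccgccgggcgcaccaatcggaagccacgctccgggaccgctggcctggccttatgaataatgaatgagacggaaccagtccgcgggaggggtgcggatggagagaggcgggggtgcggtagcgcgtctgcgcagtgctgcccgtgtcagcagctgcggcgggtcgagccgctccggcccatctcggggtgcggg
Bmal1: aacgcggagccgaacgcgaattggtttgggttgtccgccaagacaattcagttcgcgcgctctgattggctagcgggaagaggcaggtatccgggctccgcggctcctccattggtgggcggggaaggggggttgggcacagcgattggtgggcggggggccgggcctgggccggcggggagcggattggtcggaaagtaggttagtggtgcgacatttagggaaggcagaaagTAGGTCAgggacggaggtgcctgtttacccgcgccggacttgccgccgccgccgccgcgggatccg

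Of the 12 clock genes tested, 9 were higher and 3 lower in TCS_par glands, with a median difference of 0.33 against -0.01 over all genes tested. At an unadjusted p under 0.05 there were 4 higher (Nr1d1, Dbp, Per2 and Per3) and 1 lower (Bmal1), against the 0.335% and 0.457% of all genes given above, and none passed the adjusted threshold. These genes are linked in one loop and so do not vary independently of each other. All measured clock genes were named because Nr1d1 had been named in earlier results of these data. The counts therefore describe the list and are no test of it.

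Nr1d1 measured 10.13, 9.61, 9.23, 10.06 and 9.31 in TCS_par glands against 9.03, 9.41, 8.41, 8.85 and 8.99 in OIL_par glands. All but 1 of the OIL_par rats lay below all TCS_par rats, OIL_par_441 being above TCS_par_239 and TCS_par_243. The difference was 0.73 ± 0.24 (SE), a fold of 1.66 (limma, unadjusted p = 0.0117). Dbp, whose product drives D-box genes, measured 11.38, 11.17, 10.87, 11.67 and 10.90 in TCS_par glands against 10.59, 11.02, 10.31, 10.31 and 10.69 in OIL_par glands. Again OIL_par_441 alone reached into the TCS_par range, and the difference was 0.61 ± 0.21 (SE), a fold of 1.53 (unadjusted p = 0.0138).

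Per2, a repressor of the loop, measured 9.26, 9.28, 8.76, 9.51 and 9.34 in TCS_par glands against 9.09, 9.01, 8.46, 8.58 and 8.47 in OIL_par glands. TCS_par_239 lay among the OIL_par rats and the other 4 TCS_par rats lay above them, with a difference of 0.51 ± 0.20 (SE, unadjusted p = 0.0274). Per3, its relative, measured 9.71, 9.69, 9.45, 9.88 and 9.82 in TCS_par glands against 9.45, 9.60, 8.98, 8.97 and 9.24 in OIL_par glands, a difference of 0.46 ± 0.18 (SE, unadjusted p = 0.0225). Here too the other 4 TCS_par rats lay above every OIL_par rat. Bmal1 ran the other way, at 7.05, 7.38, 7.82, 7.13 and 7.48 in TCS_par glands against 7.89, 7.30, 8.23, 8.06 and 7.78 in OIL_par glands. The groups of Bmal1 overlapped through OIL_par_441, which was low, and TCS_par_239, which was high, and the difference was -0.48 ± 0.22 (SE, unadjusted p = 0.0486).

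The other clock genes differed less. Tef (0.39 ± 0.19, SE), Bhlhe41 (0.34 ± 0.20), Per1 (0.32 ± 0.19), Bhlhe40 (0.28 ± 0.18) and Clock (0.21 ± 0.16) were higher in TCS_par glands, and Cry1 (-0.12 ± 0.17) and Nfil3 (-0.16 ± 0.18), a repressor at D-boxes, were lower, all with overlapping groups. Among the 4 clock genes that fell below the variance filter and were not tested, Cry2 measured 9.14, 9.14, 9.27, 9.34 and 9.31 in TCS_par glands against 9.06, 9.14, 9.06, 9.13 and 8.75 in OIL_par glands. The groups of Cry2 met at 9.14 without overlap, at a difference of 0.21. Ciart, Rora and Npas2 differed by 0.29, 0.15 and -0.17. The list median was 0.14 in Promega and 0.41 in Zymo rats, and 4 of the 16 genes changed direction between the kits (Npas2, Nfil3 and Ciart, which turned in Zymo rats, and Cry1, which turned in Promega rats). List medians within a kit, or without a rat, are over all members above the intensity filter. Nr1d1 differed by 0.70 and 0.77 in Promega and Zymo rats, Dbp by 0.50 and 0.78 and Per2 by 0.25 and 0.90. All 10 rats are stated to have been killed on the same day, and whether the hour of collection differed between the groups was not tested.

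**Figure D2:**
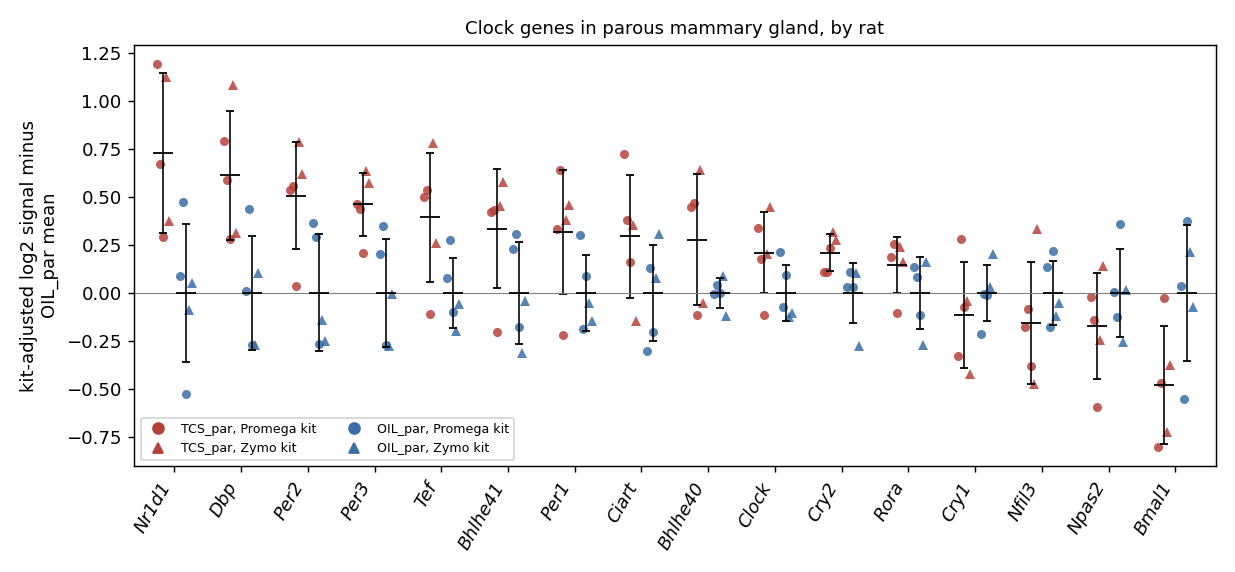
Kit-adjusted log2 signal of the 16 measured clock genes, minus the OIL_par mean of each gene, in the 5 TCS_par rats (red, left of each pair) and the 5 OIL_par rats (blue); circles are Promega and triangles Zymo rats, and bars are mean ± SD. Nr1d1 is highest on the left with a mean difference of 0.73, Bmal1 lowest on the right with -0.48, and both groups spread widely for most genes.

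The same clock genes were read in the other groups. Triclosan and mixture rats share no rats. TCS_par minus MIX_par was 0.06 for Nr1d1, 0.04 for Dbp, 0.11 for Per2, 0.06 for Per3 and 0.11 for Bmal1. Bhlhe40 differed more, at 0.30 (unadjusted p = 0.126), and Per1 most of the clock genes, at 0.64 ± 0.19 (SE; limma, unadjusted p = 0.0071, adjusted p = 1.00), and was one of the 5 genes of smallest p in that comparison. Against the same 5 OIL_par rats, in 1 fit of the 25 parous rats, Nr1d1 differed by 0.73 ± 0.23 in triclosan, 1.02 ± 0.24 in diethyl phthalate, 1.31 ± 0.23 in methyl paraben and 0.67 ± 0.23 in mixture rats (SE). Dbp differed by 0.61, 0.55, 0.75 and 0.57 and Bmal1 by -0.48, -0.22, -0.44 and -0.59 in that order. These 4 comparisons share their controls, so that a level particular to the 5 OIL_par rats would enter all of them. The diethyl phthalate rats were 1 Promega and 4 Zymo, so their values rest more on the kit term than those of the other groups.

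Edn1 had the smallest p of all genes tested. It encodes endothelin-1, a peptide that contracts vessels and is made by endothelium and epithelium. It measured 6.87, 7.07, 6.69, 6.62 and 6.77 in TCS_par glands against 7.54, 6.98, 7.70, 7.30 and 7.89 in OIL_par glands. TCS_par_238 alone lay above an OIL_par rat, OIL_par_441. The difference was -0.68 ± 0.19 (SE), a fold of 1.60 lower, with an interval from -1.11 to -0.25 (limma, unadjusted p = 0.00501, adjusted p = 1.00). It was lower in both kits, at -0.53 in Promega and -0.90 in Zymo rats. The endothelial list had a median of -0.04 (2 of 7 tested genes higher, 5 lower), with -0.23 in Promega and 0.31 in Zymo rats.

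Mast cells reside in the stroma of the gland, store histamine and proteases, and are armed by IgE on the receptor whose subunits are encoded by Fcer1a and Ms4a2. Of 7 mast cell genes tested, 6 were lower and 1, Kit, was higher in TCS_par glands, with a median of -0.64. Over the 8 members above the intensity filter the median was -0.45. An unadjusted p under 0.05 (limma) was found for 3 (Tpsab1, Ms4a2 and Fcer1a), all lower, against 0.457% lower among all genes tested. Tpsab1, a mast cell tryptase, measured 7.53, 7.48, 8.12, 7.03 and 7.23 in TCS_par glands against 7.63, 7.97, 8.41, 9.02 and 8.15 in OIL_par glands. Its groups overlapped only through TCS_par_239, and the difference was -0.76 ± 0.28 (SE, limma unadjusted p = 0.0199). Ms4a2, the beta subunit of the IgE receptor, measured 6.82, 6.69, 6.17, 5.82 and 5.89 in TCS_par glands against 6.43, 6.69, 7.01, 7.10 and 7.73 in OIL_par glands. Its Promega rats overlapped and its Zymo rats did not. TCS_par_239, TCS_par_240 and TCS_par_243 lay below the 6.30 that the intensity filter asks of a group mean. Fcer1a, the alpha subunit, averaged 6.55 ± 0.50 in TCS_par and 7.30 ± 0.53 in OIL_par glands (SD, n = 5 each).

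The difference in mast cell genes rested on the Zymo rats. The list median was -0.04 in Promega and -1.08 in Zymo rats, that is, between TCS_par_240 and TCS_par_243 on one side and OIL_par_444 and OIL_par_446 on the other. Other immune lists were lower in the same Zymo rats, with medians of -0.71 for macrophage, -1.27 for T and NK cell, -1.41 for B and plasma cell and -0.76 for MHC class II genes, and their part in the mast cell values was not tested. Cpa3, the mast cell carboxypeptidase and the brightest gene of the list, measured 9.90, 10.17, 9.46, 9.21 and 8.55 in TCS_par glands against 8.92, 9.81, 10.40, 10.44 and 10.91 in OIL_par glands. The Promega rats of Cpa3 differed by 0.13 and the Zymo rats by -1.80. A microRNA gene of myeloid cells, Mir223, showed the same split, with 5.97, 6.46, 6.35, 5.42 and 5.59 in TCS_par glands against 6.18, 6.20, 6.48, 6.86 and 7.23 in OIL_par glands (difference -0.63 ± 0.27, SE, unadjusted p = 0.0399). Its groups overlapped in Promega rats and were apart in Zymo rats. Mir223 was dim, with TCS_par_237, TCS_par_240, TCS_par_243, OIL_par_440 and OIL_par_441 below the 6.30 that the intensity filter asks of a group mean. The array reads RNA from the gene (GRCr8 chrX:65151383-65151492) and does not tell the precursor from the mature arms, which are shown here from RefSeq with the seed, bases 2 to 8, in capitals because the seed sets which transcripts an arm can bind.
rno-miR-223-5p: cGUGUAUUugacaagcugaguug
rno-miR-223-3p: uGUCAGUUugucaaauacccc

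Fatty acid synthesis builds fat in the adipocytes of the pad and milk fat in the epithelium, under the transcription factor SREBP-1 (Srebf1). Of 14 genes of this list tested, 13 were higher and 1, Elovl5, was lower in TCS_par glands, with a median of 0.41, while none passed the threshold and none had an unadjusted p under 0.05. Scd, the desaturase that makes oleate, was the gene of the list that differed most, with 11.81, 12.80, 11.59, 12.47 and 12.80 in TCS_par glands against 12.67, 10.38, 12.20, 10.74 and 11.63 in OIL_par glands. Its groups overlapped over most of their range, at a difference of 0.77 ± 0.44 (SE), or 0.46 without OIL_par_441. Srebf1 measured 11.04, 11.27, 10.41, 11.75 and 10.67 in TCS_par glands against 10.89, 10.55, 10.38, 10.46 and 10.16 in OIL_par glands, a difference of 0.54 ± 0.25 (SE, limma unadjusted p = 0.0564). TCS_par_239 and TCS_par_243 were within the OIL_par range and the other 3 were above it. Acacb, a carboxylase that feeds the pathway and restrains fat oxidation, differed by 0.54 ± 0.27 (SE). The list median was 0.11 in Promega and 0.64 in Zymo rats, and 0.19 without TCS_par_240, which had the highest level of this list.

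**Figure D3:**
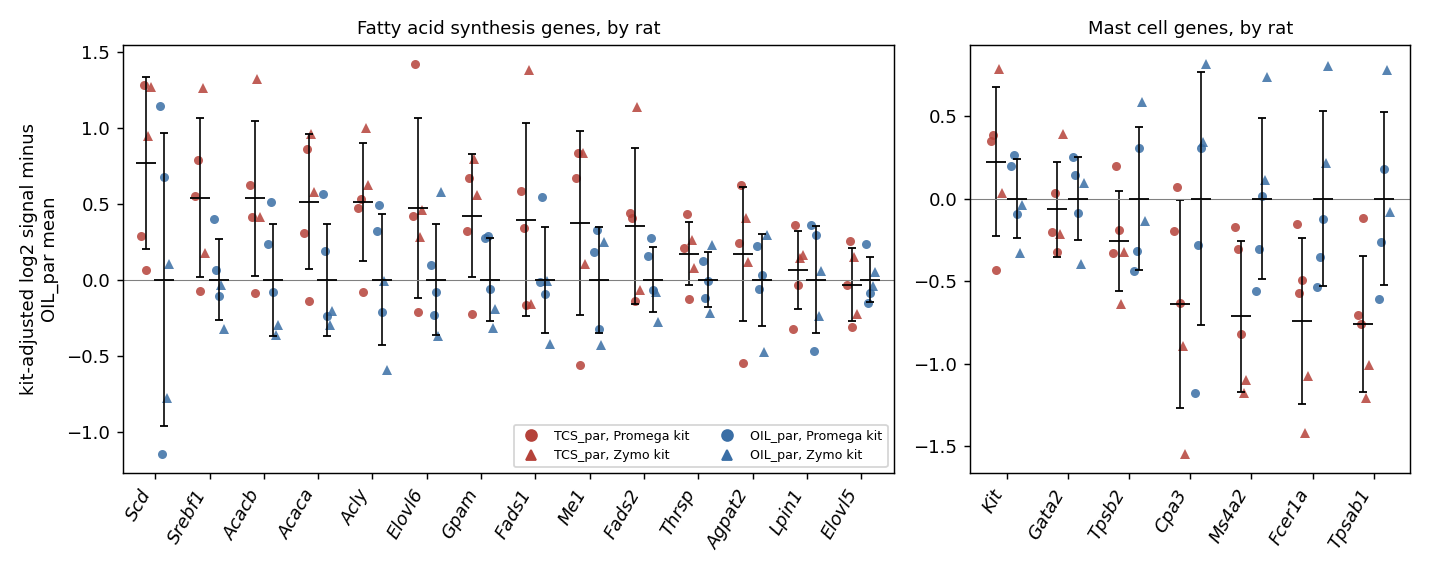
Kit-adjusted log2 signal minus the OIL_par mean for the 14 fatty acid synthesis genes (left) and the 7 mast cell genes (right) that were tested, with TCS_par rats in red and left of OIL_par rats in blue; circles are Promega and triangles Zymo rats, bars mean ± SD. On the left 13 of 14 means lie above the control mean, and on the right the Zymo triangles of both groups lie far apart for Tpsab1, Fcer1a, Ms4a2 and Cpa3.

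Neighbouring metabolic lists had smaller medians. Adipocyte genes had a median of 0.01 (7 of 12 tested higher), which joined opposite medians of -0.30 in Promega and 0.46 in Zymo rats. The part of adipocyte content in the fatty acid synthesis values was not tested. The 1 adipocyte gene with an unadjusted p under 0.05 (limma) was Cfd, the serum protease adipsin, at 12.18 ± 0.20 in TCS_par and 12.61 ± 0.25 in OIL_par glands (SD, n = 5 each). Cholesterol synthesis genes had a median of -0.16 (4 higher, 5 lower), with Sqle, the squalene epoxidase, at -0.35 ± 0.22 (SE). Genes of fatty acid oxidation and PPAR targets had a median of 0.15 (9 higher, 5 lower). Their largest members went in opposite directions, Fabp3 at 0.55 ± 0.48 and Angptl4 at -0.50 ± 0.47 (SE). Milk protein genes were higher in 7 of 8 tested, with a median of 0.27. Wap, whey acidic protein, led them with 0.87 ± 0.60 (SE) and with groups that overlapped widely.

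No gene passed in the lists for the actions that triclosan is known for. Xenobiotic metabolism genes were split, with 6 higher and 7 lower of 13 tested and a median of -0.03. Cyp2e1, an oxidase of small solvents, averaged 7.21 ± 0.66 in TCS_par and 8.15 ± 1.04 in OIL_par glands (SD, n = 5 each), and Cyp2b1, the classical target of the xenobiotic receptor CAR in rat liver, averaged 7.16 ± 0.80 and 7.71 ± 1.30 in the same order. Cyp1a1, the target of the aryl hydrocarbon receptor, did not pass the filters and averaged 6.196 and 6.001. Thyroid hormone genes were higher in 11 of 14 tested, with a median of 0.17 and no member at an unadjusted p under 0.05. Rxra, a receptor partner, differed by 0.36 ± 0.23, Me1, the malic enzyme, by 0.38 ± 0.29 and Slc16a10, a thyroid hormone transporter, by -0.43 ± 0.28 (SE). Oxidative stress genes under NRF2 had a median of -0.03 (4 higher, 5 lower).

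Hormone-responsive genes included Areg, which encodes amphiregulin, the growth factor through which estrogen acts on the mammary epithelium in mice. It measured 8.41, 9.55, 9.001, 7.98 and 8.72 in TCS_par glands against 10.24, 8.17, 9.90, 9.60 and 10.55 in OIL_par glands. All 5 TCS_par rats lay below 4 of the OIL_par rats, while OIL_par_441 was lower than every TCS_par rat but TCS_par_240. The difference was -0.96 ± 0.43 (SE), a fold of 1.94 lower (limma, unadjusted p = 0.0481). Rspo3, a Wnt signal enhancer, measured 7.70, 9.05, 8.46, 7.54 and 8.28 in TCS_par glands against 9.91, 7.58, 9.32, 8.82 and 10.04 in OIL_par glands. Its groups overlapped through TCS_par_238, which lay above OIL_par_444, and OIL_par_441. Pgr, the progesterone receptor, measured 7.42, 9.27, 8.87, 7.41 and 8.60 in TCS_par glands against 9.73, 6.73, 9.22, 8.70 and 9.46 in OIL_par glands. In all 3 genes OIL_par_441, TCS_par_237 and TCS_par_240 were the lowest rats, and the same 3 rats had the highest level of the cell cycle list (1.26, 1.07 and 1.00 above the mean of the 10 rats, all other rats at 0.31 or lower). Pgr differed between the groups by -0.45 ± 0.57 (SE), and the cell cycle list by a median of 0.04. Estrogen-responsive genes as a list had a median of -0.09 (4 of 11 higher) and the hormone-sensing luminal list one of -0.20 (3 of 10 higher). The part of cycle stage in these values was not tested.

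Azgp1, a zinc-binding glycoprotein that responds to androgen in other tissues, was higher in TCS_par glands, at 7.95, 7.51, 6.80, 7.96 and 7.14 against 6.81, 7.09, 6.63, 6.47 and 6.95 in OIL_par glands. All but TCS_par_239 lay above the OIL_par rats, and the difference was 0.68 ± 0.25 (SE, limma unadjusted p = 0.0182). Tfrc, the transferrin receptor that takes up iron, measured 9.76, 9.48, 8.68, 9.96 and 9.11 in TCS_par glands against 8.84, 9.42, 8.39, 8.69 and 8.62 in OIL_par glands (0.61 ± 0.27, SE). Lypd8 was near 6.15 ± 0.17 in OIL_par glands and split the TCS_par rats, with 7.82, 7.53 and 8.47 in TCS_par_237, TCS_par_238 and TCS_par_240 and 6.26 and 5.86 in the other pair. That pair and the OIL_par mean lay below the 6.30 that the intensity filter asks of a group mean. Slc28a3, a nucleoside transporter, and Stac2 differed by 0.73 ± 0.40 and 0.62 ± 0.36 (SE). Without TCS_par_240 these differences were 0.40 and 0.37, and that of Lypd8 was 0.65 in place of 1.04. On the lower side, Fam50a averaged 7.93 ± 0.29 in TCS_par and 8.55 ± 0.40 in OIL_par glands (SD, n = 5 each), and Reg3b, a secreted antibacterial lectin, averaged 7.28 ± 0.55 and 7.96 ± 0.40 in the same order. Dlgap5l2, Serpini1, a neuronal serine protease inhibitor, and Msc, a basic helix-loop-helix repressor of B cells, were lower, at -1.03 ± 0.45, -0.75 ± 0.34 and -0.64 ± 0.31 (SE). Single rats carried much of these, with Dlgap5l2 at -0.66 without TCS_par_240, Serpini1 at -0.47 without TCS_par_243 and -0.50 without OIL_par_444, Msc at -0.34 without OIL_par_444 and Reg3b at -0.43 without TCS_par_243.

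Lymphoid genes varied widely between rats of both groups. Every tested gene of the T and NK cell list (15) and of the B and plasma cell list (11) was lower in TCS_par glands, with medians of -0.62 and -0.60, and yet none had an unadjusted p under 0.05. The mean level of the B and plasma cell list, centred over the 10 rats, was -1.07, -0.98, 1.85, -0.99 and -0.51 in TCS_par glands against 0.11, -1.27, 1.35, 2.08 and -0.58 in OIL_par glands. TCS_par_239, OIL_par_442 and OIL_par_444 were the lymphoid-rich rats, so that the high rats were 1 of 5 in one group and 2 of 5 in the other. Ms4a1, the B cell antigen CD20, averaged 7.03 ± 1.97 in TCS_par and 8.27 ± 2.16 in OIL_par glands (SD, n = 5 each), and Cd3g, a chain of the T cell receptor complex, 9.05 ± 1.74 and 10.06 ± 1.67 in the same order. Ccl19, a chemokine that guides lymphocytes into lymph nodes, had the largest difference of all genes tested, -1.60 ± 1.09 (SE), and was not distinguishable from no difference. All 10 MHC class II genes tested and all 13 macrophage genes tested were also lower, with medians of -0.26 and -0.27. These differences lay in the Zymo rats, at -0.76 and -0.71, while the Promega rats had medians of 0.03 and 0.08. The T and B cell lists had medians of -0.14 and -0.03 in Promega and -1.27 and -1.41 in Zymo rats. Without the 3 lymphoid-rich rats these medians were -0.01 and 0.02 and those of the T and B cell lists -0.33 and -0.35.

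**Figure D4:**
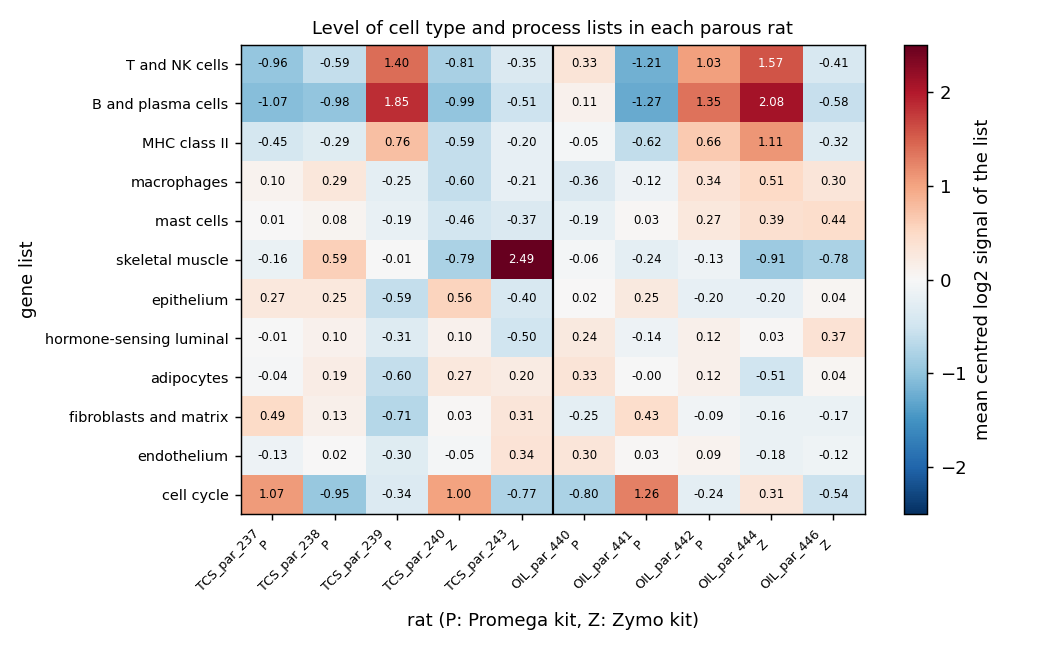
Mean centred log2 signal of 12 gene lists (rows) in each rat (columns, 5 TCS_par rats left of the line and 5 OIL_par rats right of it; P and Z give the kit), coloured from blue (low) to red (high). TCS_par_239, OIL_par_442 and OIL_par_444 are high in lymphoid lists, TCS_par_243 is high in skeletal muscle (2.49), and TCS_par_237, TCS_par_240 and OIL_par_441 are high in cell cycle genes.

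Much of the difference in muscle genes lay in 1 rat, TCS_par_243, with a list level of 2.49. TCS_par_238 (0.59) also lay above every OIL_par rat (highest -0.06), and the other TCS_par rats ranged from -0.79 to -0.01. All 12 skeletal muscle genes tested were higher in TCS_par glands, with a median of 0.86, and Acta1, skeletal muscle actin, had an unadjusted p of 0.0303 (limma). Acta1 measured 9.16, 9.80, 8.75, 9.32 and 11.32 in TCS_par glands against 9.32, 8.72, 8.81, 7.71 and 8.03 in OIL_par glands. Ckm, muscle creatine kinase, measured 7.36, 9.35, 7.21, 6.52 and 11.28 in TCS_par glands against 7.38, 7.33, 7.31, 6.36 and 6.46 in OIL_par glands. TCS_par_243, and for Ckm also TCS_par_238, stood far above all other rats, and without TCS_par_243 the list median was 0.17, Acta1 differed by 0.64 and Ckm by 0.47. Mlf1 and Myoz1, a protein of the muscle Z-disc, were likewise highest in TCS_par_243 (8.40 and 8.66), and without it differed by 0.31 and 0.26. Epithelial genes differed little (median 0.07, 13 of 20 higher), and Elf5, the alveolar transcription factor, averaged 11.73 ± 0.37 in TCS_par and 11.42 ± 0.36 in OIL_par glands (SD, n = 5 each). Basal, fibroblast and nerve lists had medians of 0.14, 0.11 and 0.03. The basal list reversed between the kits, at -0.22 in Promega and 0.66 in Zymo rats, as did the fibroblast list, at -0.06 and 0.31.

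In the stress and signalling lists no gene passed either. ER stress genes were lower in 6 of 7 tested (median -0.06), led by Creld2 and Sdf2l1, chaperone factors of the secretory pathway, at -0.46 ± 0.21 and -0.44 ± 0.20 (SE), and Creld2 had an unadjusted p under 0.05 (0.0478, limma). Interferon-responsive genes were lower in 13 of 16 (median -0.19), and Ifit1, an antiviral RNA-binding protein, was at -0.42 ± 0.20. This list had medians of 0.06 in Promega and -0.41 in Zymo rats. Its level was highest in the lymphoid-rich rats TCS_par_239 (0.34), OIL_par_442 (0.35) and OIL_par_444 (0.60). Immediate early genes were split 10 to 9 with a median of 0.02, and glucocorticoid-responsive genes 5 to 3 with a median of 0.06. Slc2a1, the glucose transporter GLUT1, was the member of the hypoxia and glycolysis list that differed most (0.44 ± 0.21, SE). In the calcium list Pln, phospholamban, was at -0.54 ± 0.26 and Sln, sarcolipin of muscle, at 0.84 ± 0.58.

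Whether triclosan glands differed from oil glands in another way in parous than in nulliparous rats was tested as an interaction over 20 rats. No gene passed (0% of 6566, limma), and 175 (2.67%) had an unadjusted p under 0.05. In nulliparous rats alone none passed either, with 437 (6.66%) at an unadjusted p under 0.05. That cut marks a share of 0.05 on average where no gene differs. Without OIL_null_429, 389 genes passed in the nulliparous comparison. The 5 interaction genes of smallest p were Rspo1, a Wnt signal enhancer, Star, which carries cholesterol into mitochondria for steroid synthesis, Hist1h4b, Cirbp, a cold-inducible RNA-binding protein, and Usp2, a deubiquitinase with a daily rhythm in rodents. Star differed by 0.46 ± 0.24 in parous and by -0.81 in nulliparous rats (interaction 1.28, unadjusted p = 0.0056, adjusted p = 0.998). Usp2 measured 8.24, 8.46, 7.68, 8.36 and 8.02 in TCS_par glands against 7.62, 7.95, 7.39, 7.14 and 8.05 in OIL_par glands. Usp2 thus differed by 0.52 ± 0.22 in parous rats, with overlapping groups, and by -0.27 in nulliparous rats.

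Clock genes differed to unequal extents in the 2 parities, without an interaction that passed. Nr1d1 was higher by 0.73 in parous and by 0.49 in nulliparous triclosan rats, and Per1 by 0.32 and 0.42. Dbp differed by 0.61 in parous and 0.08 in nulliparous rats (interaction 0.53, unadjusted p = 0.054) and Bmal1 by -0.48 and 0.06 (interaction -0.54, unadjusted p = 0.038; limma, neither passed the adjusted threshold). The fatty acid synthesis list had medians of 0.39 in parous and 0.13 in nulliparous rats over the genes above the intensity filter. For Mir223 the differences were -0.63 and -0.62, and for Ms4a2 -0.71 and -0.59, while the mast cell list had medians of -0.45 and -0.12 over the genes above the intensity filter. Lymphoid and muscle lists ran in opposite directions in the 2 parities (T and NK cells -0.62 and 0.85, skeletal muscle 0.86 and -0.96).

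**Figure D5:**
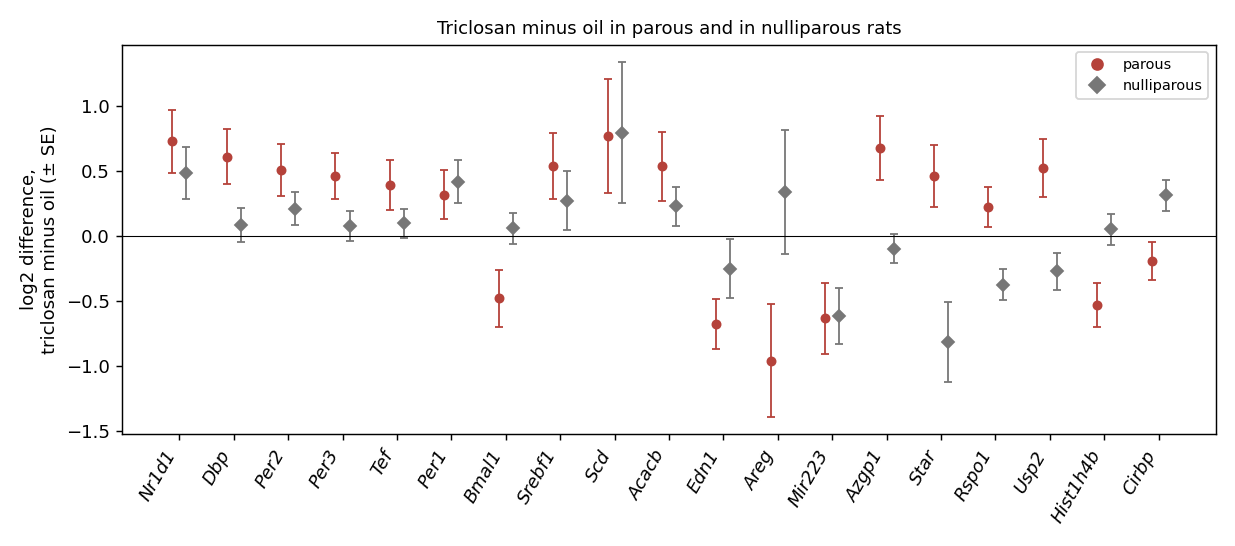
Log2 difference, triclosan minus oil, with its SE (y axis) for 19 genes named in the text, in parous rats (red circles) and nulliparous rats (grey diamonds). Star, Rspo1, Usp2 and Areg lie on opposite sides of 0 in the 2 parities, and Nr1d1, Scd, Edn1 and Mir223 on the same side.

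Triclosan alone was also set against the mixture that contains it. No gene passed in TCS_par against MIX_par (0% of 6566, limma). An unadjusted p under 0.05 was found for 55 (0.838%), below the share of 0.05 that this cut marks on average where no gene differs. The 5 genes of smallest p were Zbtb16, a transcription factor induced by glucocorticoids and progestins, at 1.12 (unadjusted p = 0.000197, adjusted p = 1.00), Sytl5 at -0.64, Kcnip1 at -0.84, Serpinb1b at -0.98 and Per1 at 0.64. Zbtb16 was near 9.41 ± 0.23 in TCS_par glands, and its difference from OIL_par glands (9.09 ± 0.68, SD, n = 5 each) was 0.32 ± 0.30 (SE). The glucocorticoid-responsive list had a median of 0.29 and the cell cycle list one of -0.51 in TCS_par against MIX_par.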

How the data were processed

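The authors hybridised total RNA to Affymetrix GeneChip Rat Gene 2.0 ST arrays and deposited log2 values made by RMA in Affymetrix Expression Console (R 3.0.2 is also listed in the submitters' notes). The article removed the kit by ComBat, yet the deposited log2 values still differed between kits, so the kit was fitted here as a term. Of 36685 probesets, 18511 had 1 gene symbol; for 291 genes with several, the brightest was kept. Genes were tested if a group mean exceeded the 30th percentile (6.30) and the interquartile range lay in the upper 50%, over the 20 triclosan and oil rats. limma 3.58.1 (lmFit, eBayes) ran in R 4.3.3 (data.table, version 1.17.8), two-sided. A gene passed where its Benjamini-Hochberg adjusted p was under 0.25 and its fold at least 1.5. Unadjusted p-values come from the same fits. The 8931 bright probesets without 1 symbol gave no call. Signals have no read depth, so the number of rats limits precision. Scripts were tested on simulated data.

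Named were the 12 genes of smallest p per direction with a fold of at least 1.5, up to 3 members of each of 40 lists and the brightest of each cell type list, all clock genes, and 5 genes for each other comparison; Csn1s1, Cyp1a1, Elovl5 and Kit were chosen after their values were seen. The groups, lists and rules were chosen with earlier results of these data known. Array pairs correlated at 0.900 to 0.989 within a kit and none were copies (smallest root mean square difference 0.222). Figures used matplotlib 3.10.9 in Python 3.11.15. Alternatives changed the kit term, filters, normalization, samples, thresholds and covariates.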

Additional observations from a re-analysis of the deposited data

Results flagged for a closer look

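Single rats stood apart from the other 4 of their group (Dixon's ratio above 0.71, which chance gives in about 1 of 20 groups) in 9 of 108 checks over 38 genes and 16 cell type lists in both groups. In TCS_par_243, Mlf1 was at 8.40 (nearest TCS_par rat 6.95). In TCS_par_239, the T and NK cell level was 1.40 (nearest -0.35) and the B and plasma cell level 1.85 (nearest -0.51), while the erythroid level was -1.45 (nearest 0.02), Bhlhe41 was at 8.35 (nearest 8.97) and Rora at 9.26 (nearest 9.53). Among control rats, Msc was at 8.63 in OIL_par_444 (nearest 7.49), Cry2 at 8.75 in OIL_par_446 (nearest 9.06), and the fibroblast level at 0.43 in OIL_par_441 (nearest -0.09). TCS_par_239 held 5 of the 9.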

How the results depend on the processing

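Counts of genes past the threshold were 0 in TCS_par against OIL_par under every alternative run, except 590 with array weights and 16 at an unadjusted p under 0.05 with a fold of at least 1.5. Genes at an unadjusted p under 0.05 numbered 52 of 6566 tested. The alternatives below also tested 6566 genes, unless another number is given. Such genes numbered 4 without the kit term and 32 in Promega and 286 in Zymo rats alone. They numbered 163 in 1 fit of 20 rats, 108 in 1 fit of 25 and 164 in 1 fit of 50. They numbered 189 of 13132 without the variance filter and 79 with that filter on deposited values. With no filter they were 350 of 18166, and with the intensity filter at the 50th percentile 26 of 4874. With array weights they were 1543, and with the lymphoid or epithelial level as a covariate 151 or 135. Leaving out single rats gave 25 (without OIL_par_446) to 513 (without TCS_par_239, 259 higher and 254 lower, smallest adjusted p = 0.602), with 155 without OIL_par_441 and 26 without OIL_par_442. Without TCS_par_239, OIL_par_442 and OIL_par_444 together, an alternative chosen after seeing the data, they were 109. ComBat, quantile normalization, centring, trend and robust estimation and the muscle covariate left this count within 1.5 times. Interaction and TCS_par against MIX_par counts stayed at 0 without the kit term, without the variance filter and without any single rat. Other alternatives, array weights among them, were not run for these comparisons. The TCS_null against OIL_null count ranged from 0 to 389 over single rats left out. Directions of the 38 genes checked turned only for Npas2 (0.0693), Nfil3 (0.0165) and Ciart (-0.0868) in Zymo rats and for Cry1 in Promega rats (0.0364) and with array weights (0.0414). Leaving out single rats turned none. The causes were not tested. No paired analysis was possible because the groups share no replicate numbers. The 5 rats a group and the spread between them limit what can be detected.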
